A study of Mus musculus with 4 samples.

Results

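The complement system was examined through 9 of its components, C1qa, C1qb, C1qc, C2, C3, C4b, C6, C9 and Cfb, in cultured primary mouse hepatocytes with and without Drp1, the product of Dnm1l that drives mitochondrial fission. Members were all non-control features of the array whose annotated gene name is one of these 9 symbols, out of 37074 gene names on the array. They came to 13 features, of which 12 were well above background by the scanner's flag on at least 1 array and 9 on all 4. The remaining feature, the second one of C1qc, was not above background on any array and is not described further. Where a gene had several features, the brightest stood for it.

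Each of the 4 groups had 1 array. Cont hepatocytes were untreated cells of control mice, labelled wild-type and described in the study's methods as Drp1flox/flox sibling littermates. Drp1LiKO hepatocytes were untreated cells of mice in which the floxed allele is recombined in the liver by Cre under the albumin promoter, a promoter of hepatocytes. The remaining 2 groups were cells of the same 2 genotypes given 200 μM palmitate, a saturated fatty acid. All cells came from C57BL/6 mice, were seeded after collagenase perfusion and low-speed centrifugation, and were harvested 24 h after seeding. The age of the animals and the number of animals behind an array are not given in the sources used here. Levels are log2 intensities relative to the 75th percentile of the array, so that 0 is that percentile and 1 unit is 2-fold. Different features bind with different strength, so levels were compared between arrays for 1 feature and not between genes. The only error available is the SD between repeat spots of a probe within an array, which had a median of 0.04 above a level of 0, 0.10 between −3 and 0 and 0.21 below −3. It does not contain the spread between animals or cultures, and no difference between 2 arrays was tested.

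The complement system is a cascade of plasma proteins that marks microbes and debris for uptake and can form pores in membranes. C1q, built from the chains of C1qa, C1qb and C1qc, recognises antibody and other ligands and starts the classical pathway, and it is made mainly by macrophages, in the liver the resident Kupffer cells. C2 and C4b supply the classical C3 convertase, Cfb the protease of the alternative convertase, C3 the central opsonin, and C6 and C9 belong to the membrane attack complex. Hepatocytes are the main source of most of these plasma components.

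The 3 C1q genes lie side by side on chromosome 4, and their features moved together across the arrays. The bases just before the start sites of C1qb and C1qc are therefore printed beside those of C3 and C9, which belong to the liver-made group. The windows come from RefSeq (GRCm38.p6), which had one for 5 of the 9 members. Capitals mark GAGGAA, the core bound by the macrophage factor PU.1 and other ETS proteins, in C1qb and C1qc, and TTGCNNAA, a C/EBP motif, in C3 and C9, each searched on both strands (TTCCTC is the reverse strand of GAGGAA).
C1qb, chr4:136886201-136886450, minus strand: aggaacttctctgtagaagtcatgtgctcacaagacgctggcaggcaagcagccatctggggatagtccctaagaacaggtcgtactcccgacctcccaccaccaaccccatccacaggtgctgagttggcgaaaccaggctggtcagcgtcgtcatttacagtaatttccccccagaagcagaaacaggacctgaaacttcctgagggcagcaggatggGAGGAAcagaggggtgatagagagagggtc
C1qc, chr4:136892915-136893164, minus strand: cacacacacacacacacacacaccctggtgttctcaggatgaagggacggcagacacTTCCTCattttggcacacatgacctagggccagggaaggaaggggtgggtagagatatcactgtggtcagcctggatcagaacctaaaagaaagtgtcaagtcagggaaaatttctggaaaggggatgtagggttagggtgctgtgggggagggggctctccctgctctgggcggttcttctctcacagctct
C3, chr17:57228137-57228386, minus strand: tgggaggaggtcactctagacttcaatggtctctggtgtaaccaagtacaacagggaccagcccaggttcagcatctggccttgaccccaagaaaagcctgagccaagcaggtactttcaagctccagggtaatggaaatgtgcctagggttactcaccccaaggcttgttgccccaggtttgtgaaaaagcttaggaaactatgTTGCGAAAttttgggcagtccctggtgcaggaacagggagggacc
C9, chr15:6445096-6445345, plus strand: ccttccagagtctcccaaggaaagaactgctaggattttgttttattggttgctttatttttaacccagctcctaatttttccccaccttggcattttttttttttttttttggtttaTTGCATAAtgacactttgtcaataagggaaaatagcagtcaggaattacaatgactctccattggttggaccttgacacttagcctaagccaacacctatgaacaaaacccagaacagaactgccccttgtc

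C1qb held GAGGAA starting 30 bases before the start site and C1qc on the reverse strand 193 bases before it. The motif was absent from the windows of C3, C6 and C9. Of all 32851 windows of 250 bases, 23.3% held it, so that a match is common. TTGCNNAA stood 45 bases before the start site of C3 and 132 before that of C9, and 9.56% of all windows held it. GAAANNGAA (part of an interferon response element, in 7.13% of windows), TTCNNNGAA (a STAT motif, in 7.02%) and GGGANTTTC (an NF-kB motif, in 0.941%) had no match in any of the 5 windows. No printed matches overlapped, and a match describes these letters only.

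On the mm9 build named in the scanner tables, the C1q features lie on the minus strand of chromosome 4, C1qa at 136452409 to 136452468, C1qb at 136436578 to 136436637 and C1qc at 136445766 to 136445825. C2 (34999575 to 34999634), Cfb (34993502 to 34993858), C4b (34865367 to 34865426) and C3 (57343416 to 57343475) lie on the minus strand of chromosome 17. C6 (4689842 to 4705241) and C9 (6447161 to 6448472) lie on the plus strand of chromosome 15. The features of Cfb, C6 and C9 span 357, 15400 and 1312 bases of the genome, longer than a 60-base oligonucleotide, so that they cross exon junctions. C2, Cfb and C4b are neighbours in the major histocompatibility region, where the C4b copy C4a also lies.

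C1qa, the A chain, had a level of −2.72 in Cont, −0.32 in Drp1LiKO, −5.77 in Cont with palmitate and −2.42 in Drp1LiKO with palmitate. C1qb, the B chain, read −2.75, −0.42, −4.16 and −1.96 in the same order. C1qc, the C chain, read −1.80, 0.92, −4.31 and −1.38. All 3 chains were highest in untreated Drp1LiKO cells and lowest in control cells with palmitate, where none of the 3 was well above background. In between, Drp1LiKO cells with palmitate stood above untreated Cont cells by 0.30 for C1qa, 0.80 for C1qb and 0.42 for C1qc, against a spot SD of that difference of 0.14.

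Among the liver-made components, C2, the protease subunit of the classical convertase, read 2.84 in Cont, 3.83 in Drp1LiKO, 2.85 in Cont with palmitate and 3.94 in Drp1LiKO with palmitate. C3 read 7.72, 8.11, 7.69 and 8.12 in the same order, and its second feature 6.62, 7.01, 6.53 and 7.04. C4b, which supplies the binding subunit of the classical convertase, read 5.23, 5.74, 5.15 and 5.85, and its second feature, whose annotation also lists C4a, 2.82, 3.36, 2.67 and 3.49. Both features of each gene placed the 2 Drp1LiKO arrays above the 2 Cont arrays. Cfb read 5.20, 5.53, 5.13 and 5.55, and its second feature 3.18, 3.50, 3.12 and 3.63. C6 was the dimmest of the liver-made features, at −2.29, −1.59, −2.63 and −1.72, and C9, the pore-forming subunit, read 4.14, 4.66, 4.23 and 4.34. For all 6 genes both Drp1LiKO arrays lay above both Cont arrays at this scaling, as did 25.7% of the 16611 genes measured on all 4 arrays, and scaling to the array median took C9 out of this count. Within a genotype, the neighbouring levels of Cont and Cont with palmitate for C2 and C3, and of the 2 Drp1LiKO arrays for C3, C6 and Cfb, differed by less than the spot SD of the difference.

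**Figure D1:**
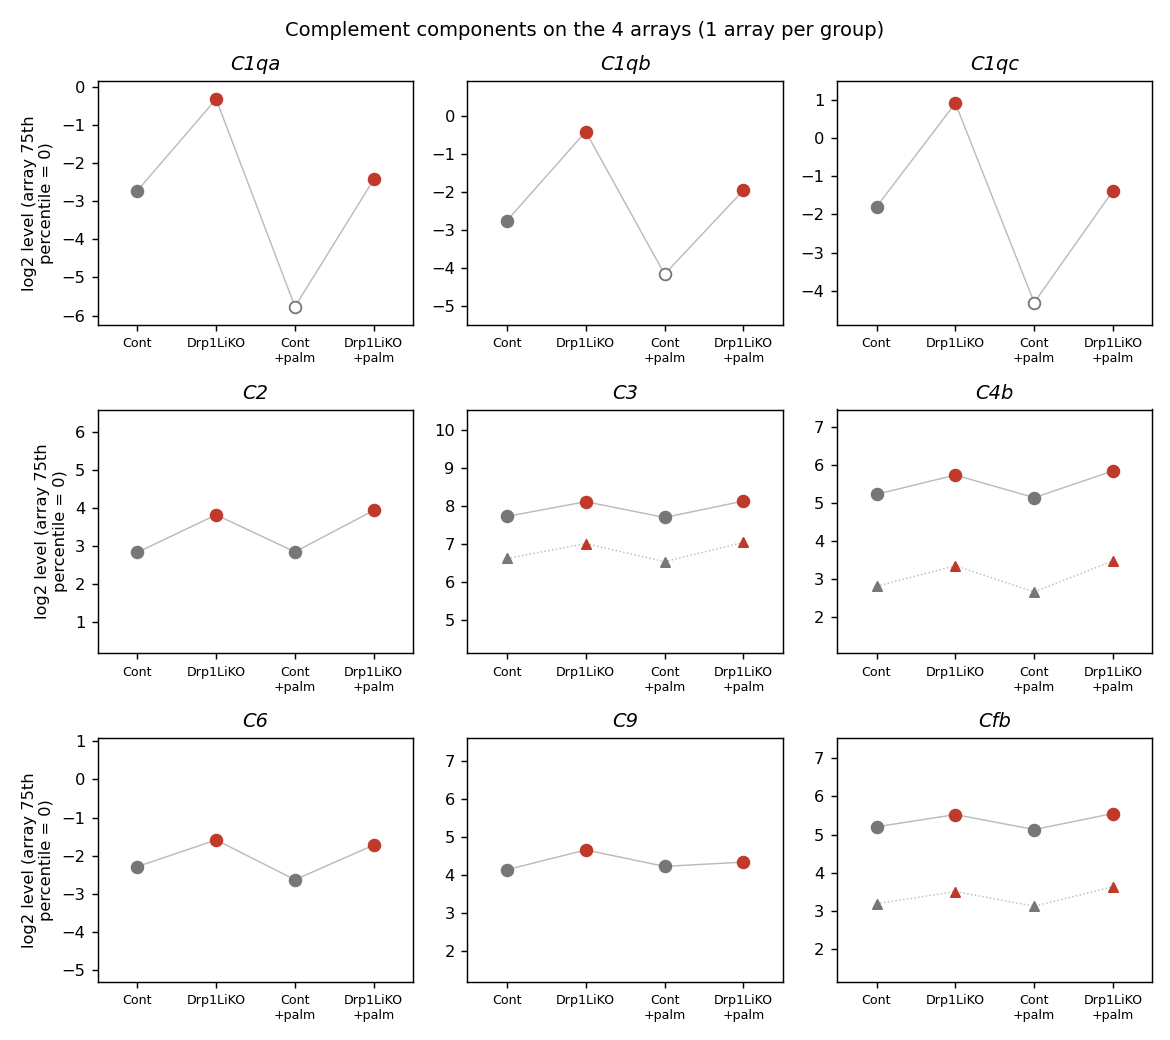
Level of each complement component on the 4 arrays (vertical axis: log2 intensity, 0 at the 75th percentile of the array, every panel spanning the same number of log2 units; horizontal axis: group, 1 array each; palm, palmitate). Circles show the feature that stands for the gene and triangles its second feature, open symbols were not well above background, red is Drp1LiKO and grey Cont, and lines only join values of 1 feature; the C1q chains vary over more than 3 units and C3 over less than 1.

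In untreated cells, the 3 C1q chains were higher in Drp1LiKO than in Cont by 2.41 (C1qa), 2.34 (C1qb) and 2.72 (C1qc) log2 units, or 5.30-fold, 5.05-fold and 6.58-fold. Normexp correction gave 1.66, 1.60 and 2.28. Both arrays gave reliable signal for all 3, and the spot SD of these differences lay between 0.11 and 0.14. These 3 of the 9 members reached the 2-fold line, with no member at least 2-fold lower. Over all 19874 genes measured, 8.84% were at least 2-fold higher and 5.59% at least 2-fold lower. A difference as high as that of C1qa was found in 2.67% of all genes, as high as that of C1qb in 2.84%, and as high as that of C1qc in 2.02%.

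The liver-made components were also higher in untreated Drp1LiKO cells, in smaller steps. C2 stood just short of the 2-fold line at 0.99 log2 units and crossed it at 1.02 with the 75th percentile taken over reliable features and at 1.03 in the authors' table and after normexp correction, while C6 differed by 0.70, C9 by 0.52, C4b by 0.51, C3 by 0.39 and Cfb by 0.32. All 9 members had a difference above 0, whereas 45.3% of the 17652 genes well above background on both arrays did. The median of the 6 liver-made genes was 0.51 and that of all genes −0.02. Scaling the arrays to their median rather than their 75th percentile shifted the median of all genes to −0.20 and the members with it, with C3 then at 0.20, Cfb at 0.14 and C1qc at 2.54. Under that scaling the share of higher genes among those at least 2-fold apart went from 61.3% to 49.9%.

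With palmitate, the C1q chains were again higher in Drp1LiKO. Because the control array gave only background for them, the differences are given as lower bounds for the deposited, background-subtracted intensities. They were set against the dimmest reliable signal of that array, or the feature's own value where that was higher. C1qa was at least 3.36-fold, C1qb at least 4.59-fold and C1qc at least 6.93-fold higher. C2 passed the 2-fold line as well, at 1.09 log2 units, and dropped to 0.95 with arrays scaled to their median. After normexp background correction the C1q differences were 1.02, 1.00 and 1.47 in the same order, with C1qb just short of the line. These 4 of 9 members compare with 7.26% of 18890 genes at least 2-fold higher, while 4.26% were at least 2-fold lower and no member was.

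C6 differed between the palmitate-treated genotypes by 0.91, C4b by 0.70, C3 by 0.43 and Cfb by 0.42. C9 differed by 0.11 and turned to −0.03 when arrays were scaled to their median. All 6 liver-made genes were above 0 at the 75th percentile scaling, as were 42.9% of the 16784 genes well above background on both arrays. Their median was 0.57 beside −0.03 for all genes. Fewer cells of a type and less RNA per cell cannot be told apart in such bulk samples.

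In control cells, palmitate was accompanied by lower C1q signal. For the deposited intensities, C1qa was at least 2.73-fold, C1qb at least 2.65-fold and C1qc at least 5.17-fold lower than on the untreated array. At the 75th percentile scaling 3 of the 9 members were at least 2-fold lower, where 2.87% of 18772 genes were, and 2.83% were at least 2-fold higher. After normexp correction the C1q differences were −0.86, −0.55 and −1.21 log2 units. In size they fell short of the bounds, which are 1.45, 1.40 and 2.37 log2 units, so that the bounds do not hold under that correction. C1qc alone then stayed past the 2-fold line. None of the 6 liver-made genes reached that line in either direction. They ranged from −0.34 for C6 to 0.09 for C9, with a median of −0.05 beside 0.01 for all genes.

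In Drp1LiKO cells the C1q chains were measured above background with and without palmitate. C1qa was lower with palmitate by 2.11 log2 units (4.31-fold), C1qb by 1.54 (2.91-fold) and C1qc by 2.30 (4.91-fold). These 3 members were at least 2-fold lower, as were 3.11% of 19746 genes, and no member was among the 3.93% that were at least 2-fold higher. The liver-made genes ranged from −0.32 for C9 to 0.12 for C2, with a median of 0.02 beside 0.00 for all genes. Untreated and palmitate arrays lay on different slides, so that slide and palmitate cannot be told apart, whereas each slide held both genotypes.

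Set against each other, the median C1q difference exceeded the median of the liver-made genes by 1.89 log2 units in the untreated genotype comparison and by 2.37 with palmitate. For the palmitate responses the difference of the medians, C1q minus liver-made, was −2.46 in control cells and −2.13 in Drp1LiKO cells. Raising values without signal to the dimmest reliable value of their array gave 1.63 for the genotype comparison with palmitate and −1.40 for the response of control cells, with the same direction. After normexp correction with quantile normalization the 4 gaps shrank to 1.12, 0.48, −0.80 and −1.45 in the same order. The smallest C1q difference was larger than that of every liver-made gene in each of the 4 comparisons, except that C1qa and C1qb lay below C2 (1.07) in the genotype comparison with palmitate after normexp correction. The 4 comparisons share arrays in pairs and do not count as independent.

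Over all 4 arrays, an additive limma model with genotype and palmitate called 0 of 20614 genes by genotype (0%, Benjamini-Hochberg adjusted p under 0.05), although 5362 had an unadjusted p under 0.05. Its genotype estimates for the C1q chains were 2.87 ± 0.33 for C1qa, 2.27 ± 0.08 for C1qb and 2.83 ± 0.10 for C1qc (estimate ± SE, 1 residual degree of freedom). These estimates include the C1q values without signal in control cells with palmitate. The limma adjusted p was 0.126, 0.119 and 0.119 in the same order, and 0.119 for C2, whose estimate was 1.04 ± 0.08. Among the other liver-made genes limma's adjusted p ran from 0.131 for C6 to 0.331 for C9. For the palmitate term 0 of 20614 genes (0%) were called, with 1995 at an unadjusted p under 0.05, and the C1q chains had limma adjusted p of 0.511 each. No member passed the threshold in either term. In simulated data with the fitted spread, the genotype term recovered 0 of 200 changed genes, so that its count of 0 does not mark genes as unchanged. With an intensity trend in the variance, 5355 genes were called by genotype, among them 8 of the 9 members, C9 being the exception, and 186 by palmitate, among them the 3 C1q chains. After normexp correction 1468 of 20615 genes were called by genotype, among them 4 members, C1qc, C2, C3 and C4b. The C1q genotype estimates were then 1.34 ± 0.19 for C1qa, 1.30 ± 0.18 for C1qb and 1.88 ± 0.23 for C1qc. With features above background on all arrays, which leaves out the C1q chains, 2592 of 16619 genes were called by genotype. Among them were 3 members, C2, C4b and C6.

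The rest of the complement system was described through 54 further genes, of which 51 are on the array and 44 were well above background on at least 1 array. In untreated cells 11 of the 44 stood higher in Drp1LiKO by 2-fold or more and 0 stood lower, beside 8.84% of all genes higher, with a median of 0.30 beside −0.02 for all genes. With palmitate it was 7 of 40 and 0, beside 7.26% of all genes higher, with a median of 0.31 beside −0.03. When features had to be above background on both arrays, the counts were 5 of 37 and 3 of 35, and no share of all genes is given under that filter. After normexp correction they were 2 and 3. Of all genes, 570 of 19872 and 427 of 18893 were then at least 2-fold higher, and 437 and 298 lower. With dim values raised to the floor of the array the counts were 8 and 6.

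The proteases of the C1 complex, which C1q activates, did not share the size of the C1q difference. In untreated cells, the 6 measured genes of this list (C1ra, C1rb, C1rl, C1s1, C1s2 and the C4 copy C4a) lay between −0.22 and 0.32, and with palmitate between 0.03 and 0.87. None was at least 2-fold apart in any of the 4 comparisons. The terminal pathway genes beside C6 and C9 (Hc, C7, C8a, C8b and C8g) lay between −0.17 and 0.51 in untreated cells and between −0.07 and 0.58 with palmitate, again with none at 2-fold.

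Of the lectin pathway, Fcna, a ficolin made by macrophages, read −4.11 in Cont and −2.02 in Drp1LiKO, a difference of 2.09. With palmitate it was at least 3.58-fold higher in Drp1LiKO. The hepatocyte lectins Mbl1 and Mbl2, which start this pathway on microbial sugars, differed by 0.48 and −0.08 in untreated cells. Cfp, properdin, which stabilises the alternative convertase and is made by leukocytes, read −0.82 in Cont, 0.80 in Drp1LiKO, −0.81 in Cont with palmitate and 0.65 in Drp1LiKO with palmitate. Its genotype differences were 1.62 and 1.46, and its palmitate responses 0.01 and −0.15, so that it shared the genotype pattern of C1q and not its palmitate pattern.

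Receptors of complement held 5 of those 11 genes, out of 10 receptor genes measured in untreated cells. Among receptors with signal on both arrays it was 2 of 6 (median 0.62), and with palmitate 1 of 5 (median 0.27). Itgam, in the same list but not among the 5, had signal on all 4 arrays and differed by 0.02 and −0.36. It was named after its values were seen. Cd93, a membrane lectin of endothelial and myeloid cells, read −0.05 in Cont, 1.90 in Drp1LiKO, −0.03 in Cont with palmitate and 1.67 in Drp1LiKO with palmitate. Itgb2, the beta chain of complement receptors 3 and 4, read −4.07 in Cont and −2.53 in Drp1LiKO and was at least 3.35-fold higher in Drp1LiKO with palmitate. The remaining 3, named after their values were seen, were C3ar1 and C5ar1, receptors of the anaphylatoxins, and Vsig4, a C3b receptor of Kupffer cells. They were well above background in untreated Drp1LiKO cells alone, at least 1.29-fold, 1.88-fold and 3.08-fold above Cont, so that the bound of 2 of them lies under the 2-fold line. The same 3 were the list genes counted as lower with palmitate in Drp1LiKO cells by their measured values, and all 3 were without reliable signal there. As lower bounds, Vsig4 was at least 2.65-fold lower, C5ar1 1.62-fold and C3ar1 1.11-fold, so that Vsig4 alone kept a bound above 2-fold. None of the list genes was at least 2-fold apart in the palmitate response of control cells.

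**Figure D2:**
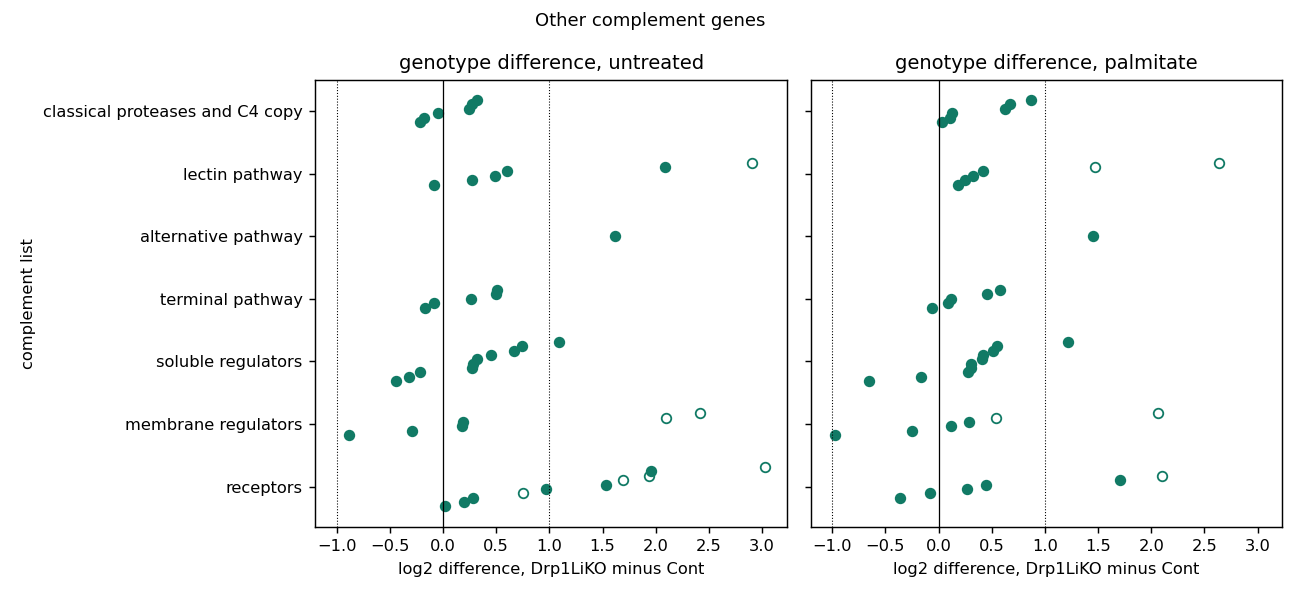
Genotype differences of the other complement genes (horizontal axis: log2, Drp1LiKO minus Cont) by list (vertical axis), untreated on the left and with palmitate on the right; each point is 1 gene, open where 1 of the arrays was not well above background, with dotted 2-fold lines. Most points to the right of the upper line come from the lectin and receptor lists, and none lies to the left of the lower line.

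Markers of macrophages also differed between the genotypes. In untreated cells 18 of 21 measured macrophage markers passed the 2-fold line upward in Drp1LiKO, beside 8.84% of all genes. Their median was 2.44 beside 2.41 for C1q, and some of them had signal in Drp1LiKO alone. With palmitate 17 of 20 passed that line, beside 7.26% of all genes. The marker median was then 1.80 beside 2.94 for C1q, or 2.20 with C1q raised to the floor. Of the 20 markers 14 lay below the latter. The markers were not raised and some of them also lacked signal in control cells, so that this count sets unlike values side by side. Among markers with signal on both arrays 12 of 15 passed the line in untreated cells (median 2.25) and 11 of 14 with palmitate (median 1.69). Summed over the list, of which Cd14 was the brightest, the level relative to the 75th percentile was 25.8 in Cont, 60.9 in Drp1LiKO, 31.5 in Cont with palmitate and 60.9 in Drp1LiKO with palmitate. Without Cd14 the sum was 12.6, 45.6, 16.5 and 45.3 in the same order. Adgre1, a surface receptor that defines mouse macrophages, differed by 2.44 and 2.10, and Cd68 by 2.01 and 1.69. Clec4f, a marker of Kupffer cells, stood at least 5.21-fold above Cont in untreated Drp1LiKO cells and was not above background in either Cont group. Csf1r differed by 0.59 and 0.42, and its second feature by 0.08 and −0.06. Timd4, Cd163 and Spi1, the gene of PU.1, were not above background on any array.

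The palmitate responses of the same markers were spread on both sides of 0. In control cells their median response was 0.30, and 3 of 15 passed the 2-fold line upward and 1 downward. In Drp1LiKO cells it was −0.15, with 1 of 21 past it upward and 4 downward, while the C1q median was −2.11. Of the 21 markers, 3 lay below the C1q median and 18 above it. In control cells the C1q median rests on features without signal under palmitate, and raised to the dimmest reliable value it was −1.45, with 14 of 15 markers above it and Cd5l, at −1.99, below. The sum over the list was higher with palmitate in control cells and nearly equal in Drp1LiKO cells. The part of macrophage markers in the C1q differences was not tested.

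Markers of other cells of the liver also differed. In untreated cells, among genes with signal on both arrays, 7 of 11 of the endothelial list (median 1.31) and 3 of 5 of the stellate list (median 1.11) passed the 2-fold line upward in Drp1LiKO. A further 3 endothelial and 5 stellate genes had signal in Drp1LiKO alone and passed the filter through that array. The summed levels on the 4 arrays ran from 2.69 to 7.11 for the endothelial list and from 45.3 to 62.7 for the stellate list, of which Des and Hhip were not above background on any array. The stellate sum was mostly Acta2, and without it the sum was 1.09 in Cont, 11.1 in Drp1LiKO, 1.24 in Cont with palmitate and 13.4 in Drp1LiKO with palmitate. With palmitate in Drp1LiKO cells, the endothelial median was −0.67, with 2 of the 14 genes above 0 and the sum going from 7.11 to 5.12, and the stellate median was −0.19. In control cells the endothelial and stellate medians were −0.08 and −0.26. The part of these cells in the C1q differences was not tested. Stab2, of sinusoidal endothelium, differed by 1.25, Pecam1 by 0.98, Col1a1 by 0.94 and Dcn, a matrix protein of fibroblasts and stellate cells, by 4.19. In untreated cells the neutrophil, lymphocyte and cholangiocyte lists held 1 gene each past the 2-fold line upward, of 2, 2 and 4 measured. Of the 2 untreated arrays, each of these genes had signal in Drp1LiKO alone. Among genes with signal on both arrays it was 0 of 1, 0 of 1 and 0 of 3. All 15 hepatocyte markers were above background on every array, with a median difference of 0.24 in untreated cells and 0.28 with palmitate. Alb differed by 0.20 and 0.28, and its second feature by −0.15 and −0.04. Apoa1 differed by 0.24 and −0.24 and Ttr by 0.50 and 0.50. The summed hepatocyte level stayed between 1798 and 1865. Without Serpina1a, the brightest of the list, the sum was 1125 in Cont, 1216 in Drp1LiKO, 1076 in Cont with palmitate and 1212 in Drp1LiKO with palmitate. The liver-made complement medians of 0.51 and 0.57 lay above those of the hepatocyte list, and 3 of its 15 genes were at least 2-fold higher in each condition. Dnm1l, the deleted gene, read 2.42 in Cont and 1.07 in Drp1LiKO, and 2.43 and 1.01 with palmitate, so that its direction matched the labels on both slides.

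**Figure D3:**
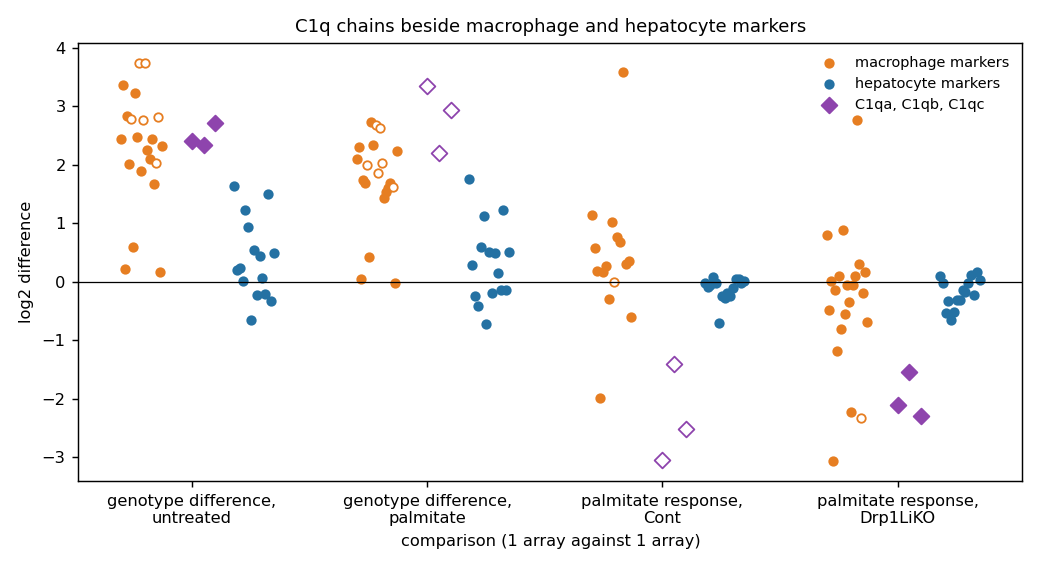
Log2 differences (vertical axis) of the C1q chains (purple diamonds), macrophage markers (orange) and hepatocyte markers (blue) in the 4 comparisons (horizontal axis), 1 array against 1 array; open symbols rest on an array without signal above background. The C1q chains lie within the macrophage markers in the untreated genotype comparison and below most of them in both palmitate responses.

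The genes with the nearest pattern were sought among 16605 genes above background on all 4 arrays, by the distance between profiles centred over the 4 arrays. The mean C1q profile includes the values without signal in control cells with palmitate. Nearest to it were Clec7a, the beta-glucan receptor of myeloid cells (distance 0.84 log2 units), Cd5l, a protein secreted by tissue macrophages (0.89), Tmem179 (1.43), Ccl6, a chemokine of myeloid cells (1.55), and Tyrobp, a signalling adaptor of myeloid cells (1.56). Clec7a read −2.41 in Cont, 0.16 in Drp1LiKO, −3.82 in Cont with palmitate and −2.08 in Drp1LiKO with palmitate, and Cd5l −1.45, 1.38, −3.44 and −1.69. Both were highest in untreated Drp1LiKO cells and lowest in control cells with palmitate, as the C1q chains were. They were chosen for a near pattern on the same arrays, so that this order is no separate finding. Nearest to C3 were Mapk7 (0.01), Cgnl1 (0.02), Egfl8 (0.02), Itpk1 (0.02) and Neurl4 (0.03), of which Mapk7 read 2.00, 2.37, 1.97 and 2.40.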

How the data were processed

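RNA of primary hepatocytes was labelled with 1 dye and hybridised to a 60-mer mouse array, 1 array per group, with groups taken from the sample labels. The deposited table of each array gives linear intensity values, background-subtracted and spatially detrended by Feature Extraction 10.7.1.1 per the file headers (the submitters' processing notes name Feature Extraction 9.5.1.1), without scaling between arrays. The labels and the methods name different RNA kits, and the label of the Cont array states that its raw data are shared with a sample of another series. The authors also deposited a linear intensity table that served as an alternative and holds quantile-normalized values of the same arrays.

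Intensities were transformed to log2 and the 75th percentile over all non-control spots was subtracted. It lay between 424 and 542. Outlier spots were left out and repeat spots averaged. Between 44.7% and 51.1% of features were well above background, and no spot was saturated (0 on each array). The number of arrays limits the precision. A gene counted as apart at a log2 difference of at least 1 with its feature above background on at least 1 of the compared arrays. Where 1 array gave only background, the fold is a lower bound for the deposited intensities, and normexp correction can give a smaller value. limma 3.58.1 in R 4.3.3 fitted genotype and palmitate, and the fit was run on simulated data with 200 genes changed by genotype. Those raised had a mean estimate of 2.01 log2 units, yet with the fitted spread 0 of the 200 were recovered. With an equal spread for all genes, 200 were recovered and 10 unchanged genes were called.

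The members and lists were chosen with earlier results of these data known. Genes named beside the members were those of each complement list at least 2-fold apart between genotypes and above background on both arrays (at most 3 a list, by size), the 5 nearest in pattern to C1q and to C3, Dnm1l and a set of marker examples. A gene that this rule named is not reported here. Alternatives covered scaling, background correction, the choice of feature, filters on dim features, outlier spots and the variance model. Raising dim values to the array's floor was added after the data were seen. Promoter windows came from RefSeq. Probes could not be placed in exons, since no annotation of the mm9 build was used here.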

Additional observations from a re-analysis of the deposited data

Results flagged for a closer look

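C4b was lower with palmitate in control cells (−0.09) and higher in Drp1LiKO cells (0.11), so that its responses pointed in opposite directions and differed by 0.20 log2 units. C9 was higher with palmitate in control cells (0.09) and lower in Drp1LiKO cells (−0.32), which differed by −0.41. Each response was larger than the spot SD of the difference, 0.05, but with 1 array a group the difference between the genotypes was not tested. The second feature of C4b showed the same opposite signs, at −0.15 and 0.13.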

How the results depend on the processing

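Scaling to the array median, to features above background on all arrays or to the authors' table, averaging all features of a gene and keeping outlier spots left the counts of members, the counts of other complement genes and the gap between C1q and liver-made medians within 1.5 times or within the spot SD. Normexp background correction with quantile normalization narrowed that gap to 1.12 and 0.48 in the untreated and palmitate genotype comparisons and to −0.80 and −1.45 in the responses of control and Drp1LiKO cells. It left 1 member at least 2-fold lower with palmitate in control cells, and counts of other complement genes of 2, 3 and 0 in the untreated genotype comparison, the genotype comparison with palmitate and the Drp1LiKO response. Requiring signal on both arrays left 1 member in the genotype comparison with palmitate and 0 in the control response, with 5, 3 and 0 other complement genes, since it removes the dim C1q features by construction, and the C1q gap had no value there. Without any filter, 5 other complement genes passed in the control response. Raising dim values to the floor gave C1q gaps of 1.63 and −1.40 and 1 other complement gene in the Drp1LiKO response. For the additive model, 1468 genes were called by genotype after normexp, 2592 with features above background on all arrays and 5355 with a variance trend, against 186 by palmitate with that trend; the cause was not tested. Of 318 recomputed member differences, 53 moved by more than the spot SD, 7 small ones changed sign, and 0 of those at least 2-fold did. Where control cells with palmitate gave no C1q signal, depth of signal limits the comparison to a bound. No paired analysis was possible because each group has 1 array and replicate numbers pair nothing, other than by slide: each slide held both genotypes, and the additive model compared the genotypes within slides.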
